A study of Tursiops truncatus with 31 samples.

Results

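The transcripts described here are those of the cytosolic ribosomal proteins in the peripheral blood of bottlenose dolphins. They were taken by gene symbol alone: every gene of the genome-guided table whose symbol is RPL or RPS with a number (with or without an A, X, L or L1 at its end), RPLP0 to RPLP2 or RPSA. The rule found 68 members of 9610 genes, 40 of the large subunit and 28 of the small subunit, with no symbol used more than 1 time. All 68 entered every test. The rule used no measured value, but the table itself holds only genes above a low level that the study had set (lowest mean 1.00 FPKM), so that members below it are not covered.

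Whole blood of 4 healthy dolphins under human care was sampled about monthly over 1 year. Globin transcripts were reduced with an RNase H assay in every sample before sequencing. The females were Pele (28 years, 7 libraries) and Keo (12 years, 9 libraries), and the males were Kai (17 years, 7 libraries) and Hua (5 years, 8 libraries), which gives 31 libraries. The 8 summer libraries came from July, August and September, the 8 winter libraries from December and February, and 4 of each came from either sex. No animal was treated. Libraries of a group are repeated samples of the same few animals, so that p-values over libraries measure the spread between samples of 4 individuals, and with 2 animals of each sex the sexes and the individuals cannot be told apart. Levels are given as FPKM, fragment counts corrected for transcript length and for the number of mapped reads, with mean ± SD over libraries.

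A ribosome is made of a large subunit, which joins amino acids, and a small subunit, which reads the message. Each protein of a subunit is normally present in 1 copy, so their messages are made in concert and share a tract of pyrimidines at their start through which growth signals regulate translation. Red cells and platelets of mammals have no nucleus and carry messages made by their precursors, while white cells go on making their own, so whole blood mixes both sources.

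A target depth is stated in the published methods, but the read number reached in each library is not given in the sources used here. Summed FPKM ran from 1122496 to 1625174, and the globin share of that sum from 5.68% (Pele December) to 43.1% (Hua October). Within the whole table the median gene was 0.34 higher in females than in males on the log2(FPKM + 1) scale, and 0.04 higher after scaling each library by its median ratio to the others. Size factors of that scaling averaged 1.16 ± 0.229 in females (n = 16) and 0.898 ± 0.210 in males (n = 15). Changes of the members are therefore given on both scales.

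Ribosomal proteins were among the most abundant messages of dolphin blood. They made up 24.0 ± 4.03% of summed FPKM (n = 31), from 16.8% in Pele July to 31.2% in Kai February. Of the 133 genes with a mean over 1000 FPKM, 59 were members, and 51 members stood among the 100 highest means. The share was 22.8 ± 3.52% in females (16.8 to 27.3%, n = 16) and 25.3 ± 4.27% in males (17.5 to 31.2%, n = 15), with overlapping ranges. With the globin genes left out of the sum it was 28.8 ± 3.19% in females and 34.3 ± 4.04% in males, again with overlap. The 8 summer libraries had a share of 23.7 ± 4.84%, and the 8 winter libraries 24.5 ± 3.39%. The share is a composite of the members and was not tested.

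Levels spanned a wide range within each subunit. The mean of a large-subunit member had a median of 2494 FPKM over the 40 members (quartiles 1291 and 4446), and that of a small-subunit member a median of 4775 FPKM over 28 (quartiles 3404 and 7399). The summed levels of the subunits were close. Large over small was 1.08 ± 0.0713 (n = 31), from 0.961 in Pele February to 1.22 in Kai February. The ratio averaged 1.01 ± 0.0494 in Pele, 1.09 ± 0.0606 in Keo, 1.13 ± 0.0801 in Kai and 1.11 ± 0.0484 in Hua. Only Pele had libraries with a ratio below 1.

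The 4 most abundant large-subunit messages were those of RPL37, RPL12, RPL30 and RPL31. RPL37 averaged 21015 ± 11416 FPKM, RPL12, part of the base of the stalk where elongation factors bind, 19166 ± 6313, RPL30 18233 ± 5629.5 and RPL31 14857 ± 4166 (n = 31 each). At the low end were RPL37A at 474 ± 255 FPKM and 3 paralogues, which are described below. RPL37 and RPL37A encode different proteins in spite of their names, and the highest value of RPL37A, 1328 FPKM, was below the lowest of RPL37, 5628 FPKM.

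In the small subunit high means were those of RPS7 (14669 ± 4386 FPKM), RPS2 (14273 ± 2938) and RPS12 (12417 ± 2099.6). The lowest were RPS26 (1499 ± 1099), RPS21 (144 ± 43.3), RPS15A (95.3 ± 47.9) and RPS27L (26.9 ± 19.5). RPS21 and RPS15A are standard parts of the small subunit, and their highest values in any library were 267 and 205 FPKM.

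**Figure D1:**
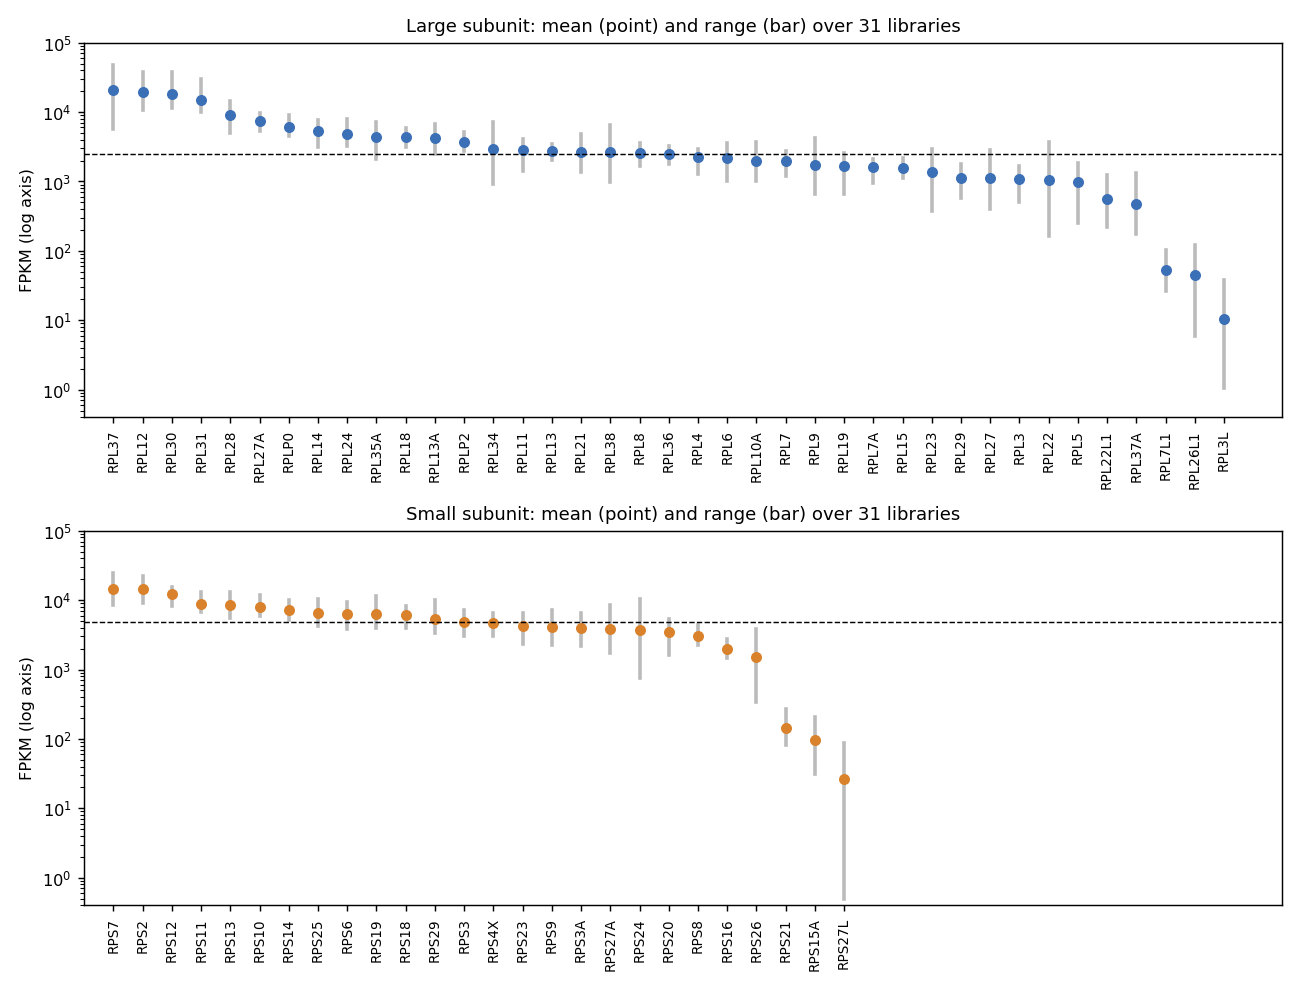
FPKM (log axis) of large-subunit members (upper panel) and small-subunit members (lower panel), ordered by mean, without 3 members that are not reported by name. Points are means and bars the range over 31 libraries, the dashed line is the median of the means of all members of that subunit, and the bar of RPS27L, listed at 0 in 1 library, is drawn from 0.5. Most members lie between 1000 and 10000 FPKM, and RPL3L at 10.5 FPKM is the lowest.

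How far these levels reflect the messages themselves depends on how reads were shared out. Ribosomal protein genes have many processed pseudogenes in mammalian genomes, and reads that match several copies can be assigned differently by each program. Of the 68 members, 65 were also in a table that the authors made from the same libraries with Cufflinks. The order of the means over these 65 had a Spearman correlation of 0.84, but the RSEM mean was 104 times the Cufflinks mean for RPL21, 53.1 times for RPL7 and 52.0 times for RPL23, against a median ratio of 2.304 over the 65. RPS21 went the other way, with 0.0938 times. A low or high place in the order of levels is therefore uncertain for such members, and the comparisons below are each made within 1 table.

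In the RSEM table the paralogues were far below their partners. RPL3L, which in human and mouse is the striated muscle form of RPL3, averaged 10.5 ± 7.23 FPKM, against 1086 ± 313 FPKM for RPL3. It was 0.210 to 3.23% of RPL3 within a library. RPL7L1, related to RPL7, averaged 52.9 ± 20.8 FPKM, against 1950 ± 434 FPKM for RPL7, or 1.29 to 4.54% of it. In the Cufflinks table RPL7L1 averaged 15.1 FPKM and RPL7 36.7 FPKM, so the size of this gap depends on the program.

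RPL22L1 was the exception. It averaged 562 ± 250 FPKM, against 1066 ± 810 FPKM for RPL22, and reached a median of 55.0% of its partner within a library. In the Cufflinks table RPL22L1 averaged 95.8 FPKM and RPL22 98.5 FPKM, so this ratio depends on the program. In mouse RPL22 limits the message of RPL22L1. Here both were high in the same libraries (Spearman correlation 0.86 over 31 libraries, a description, since both share library, depth and composition). RPL22L1 ranged from 34.3% of RPL22 in Pele March, where RPL22 was at 2384 FPKM, up to 184% in Kai July, where RPL22 was at its lowest, 163 FPKM. RPL26L1, nearly identical to RPL26 in human, averaged 44.7 ± 23.9 FPKM, and RPL26 itself was not analysed here. RPS27L, a p53 target in human cells, averaged 26.9 ± 19.5 FPKM, was listed at 0 in Kai February and reached 88.0 in Hua August. RPS4X, the X-linked form of S4 in human, averaged 4704 ± 880 FPKM.

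Most members moved up and down together from library to library. To describe this, each member was expressed relative to its own median on the log2 scale, and its Spearman correlation over the 31 libraries with the median of the other members was taken as its agreement. The points share library, depth and composition, so the values are a description. Agreement had a median of 0.65 over the 68 members, was at least 0.5 for 48 and below 0.3 for 10, and 1 member was below 0. It had a median of 0.64 in the large subunit and 0.68 in the small subunit.

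The closest followers were RPS6, the S6 kinase substrate (0.94), RPL13A (0.91), RPS23, which lies in the decoding centre (0.88), and RPL30 (0.86). RPS6 was at 3861 FPKM in Pele July and 9311 in Kai February. Among the lowest were RPS26 (-0.52), RPL3L (0.04), RPS13 (0.09), RPL28 (0.13) and RPL7L1 (0.19). After median-ratio scaling RPS13 reached 0.64 and RPL28 0.78, while RPL3L was at -0.26 and RPS26 at 0.12. The low values of RPS13 and RPL28 thus depend on the scale, and the sign of RPS26 does too. In the Cufflinks table, described above, RPL3L and RPS13 were both at -0.13.

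Members also differed in how much they varied. The coefficient of variation (CV, SD over mean) had a median of 0.27 over members and 0.52 over all genes, and was below the median of all genes for 58 of the 68. Among the steadiest were RPL13 (0.12), RPL27A (0.15) and RPLP0, the stalk protein (0.16). RPL13, which the study had used as a control gene when it tested globin reduction, stayed between 2063 and 3482 FPKM.

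At the other end were RPL22 (0.76), RPS26 (0.73), RPS27L (0.73) and RPL3L (0.69). RPL22 was at 3657 FPKM in Hua August, 2714 in Keo December and 2384 in Pele March, against 163 in Kai July. Several of the more variable members had nearly the order of libraries of RPL22: its Spearman correlation was 0.94 with RPL9, 0.93 with RPS24, 0.91 with RPL34, 0.87 with RPL23 and 0.85 with RPL38. RPS24 reached 10217 FPKM in Hua August, against 751 in Kai July. Hua August held the highest value of 25 of the 68 members, and Kai July held the lowest value of 16.

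**Figure D2:**
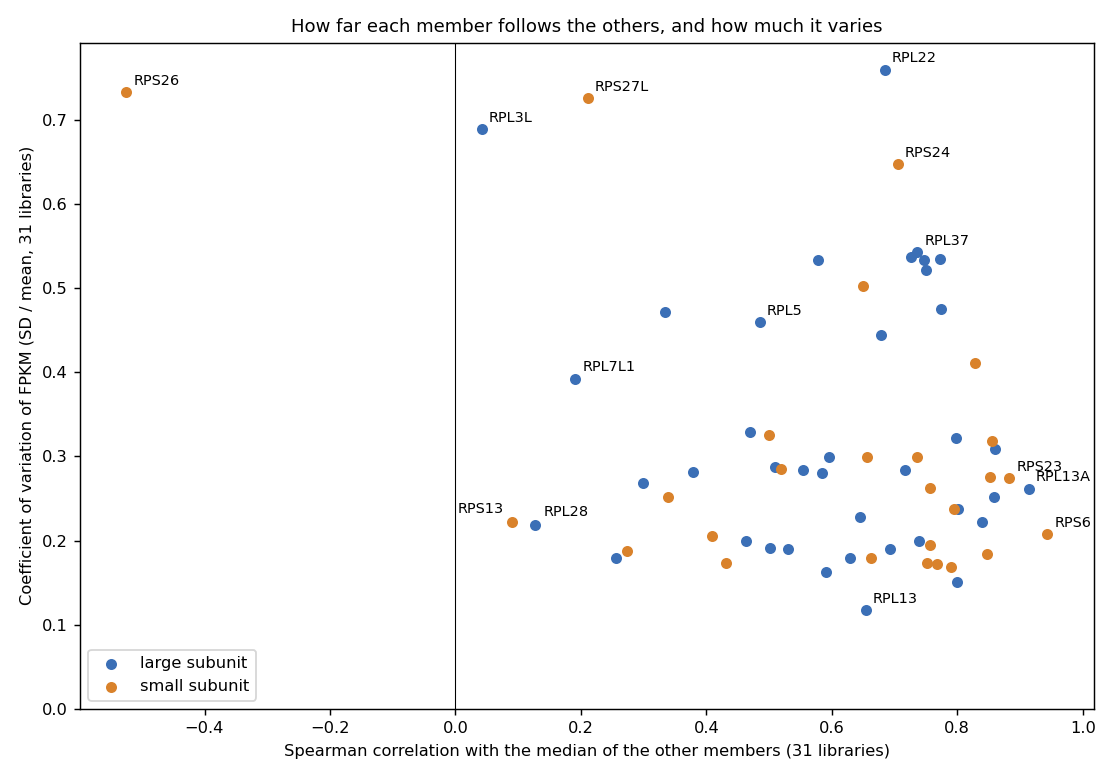
Agreement of each member drawn (3 are left out) with the median of the others (x axis, Spearman correlation over 31 libraries) against its coefficient of variation (y axis, SD over mean of FPKM). Blue points are large-subunit and orange points small-subunit members. RPS26 stands alone at -0.52, and RPL22 at 0.68 combines a CV of 0.76 with a course like that of the others.

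On deposited FPKM, RPS26 was the single member with an agreement below 0. RPS26 lines the channel through which the message leaves the small subunit. It was at 3814 FPKM in Hua October, 3726 in Pele July, 3603 in Kai July, 3306 in Keo March, 3210 in Keo April and 2943 in Pele August. These 6 values came from all 4 animals and were separated from the next, 2165 in Keo August. The other 25 libraries ran down to 335 FPKM in Hua May.

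The median of the other members was low in the same libraries. Of the 68 members 10 or fewer stood above their own median in each of Hua October, Pele July, Keo March, Keo April and Pele August, and 11 did in Kai July. RPS26 made up 1.16 to 1.61% of the summed members in these 6 libraries, against 0.0874 to 0.699% in the other 25. The globin share was 28.9 to 43.1% in the 6 libraries, 5 of which were among the 10 with the highest globin share. Over 31 libraries RPS26 had a Spearman correlation of 0.43 with the globin share, above the value of every other member, and Hua December, with a globin share of 37.6%, had RPS26 at 574 FPKM. The part of globin content in this pattern was not tested. The Cufflinks table had no row matched to RPS26, so that its course has no second estimate.

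Some other members with an agreement below 0.5 followed each other. RPL28 and RPS2 had a Spearman correlation of 0.78 with each other, and RPS13 and RPS4X 0.70. Across these, RPS4X was at 0.02 with RPL28 and 0.23 with RPS2, and RPS13 at 0.47 with RPL28 and 0.60 with RPS2. They were not closed pairs, since RPL12 was at 0.76 with RPL28 and 0.66 with RPS2. RPS4X was at 0.62 with both RPL3L and RPL29. RPS13 was highest in Kai May (13117 FPKM) and lowest in Hua October (5608 FPKM), where RPS26 was high. Its Spearman correlation was -0.54 with RPL22. The summed level of the 3 measured platelet markers had a Spearman correlation of -0.78 with RPL22. That sum ran from 16.3 to 159 FPKM in females and 2.60 to 72.2 FPKM in males, 1 of the 3 markers was at 0 in at least 1 library, and its part was not tested.

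**Figure D3:**
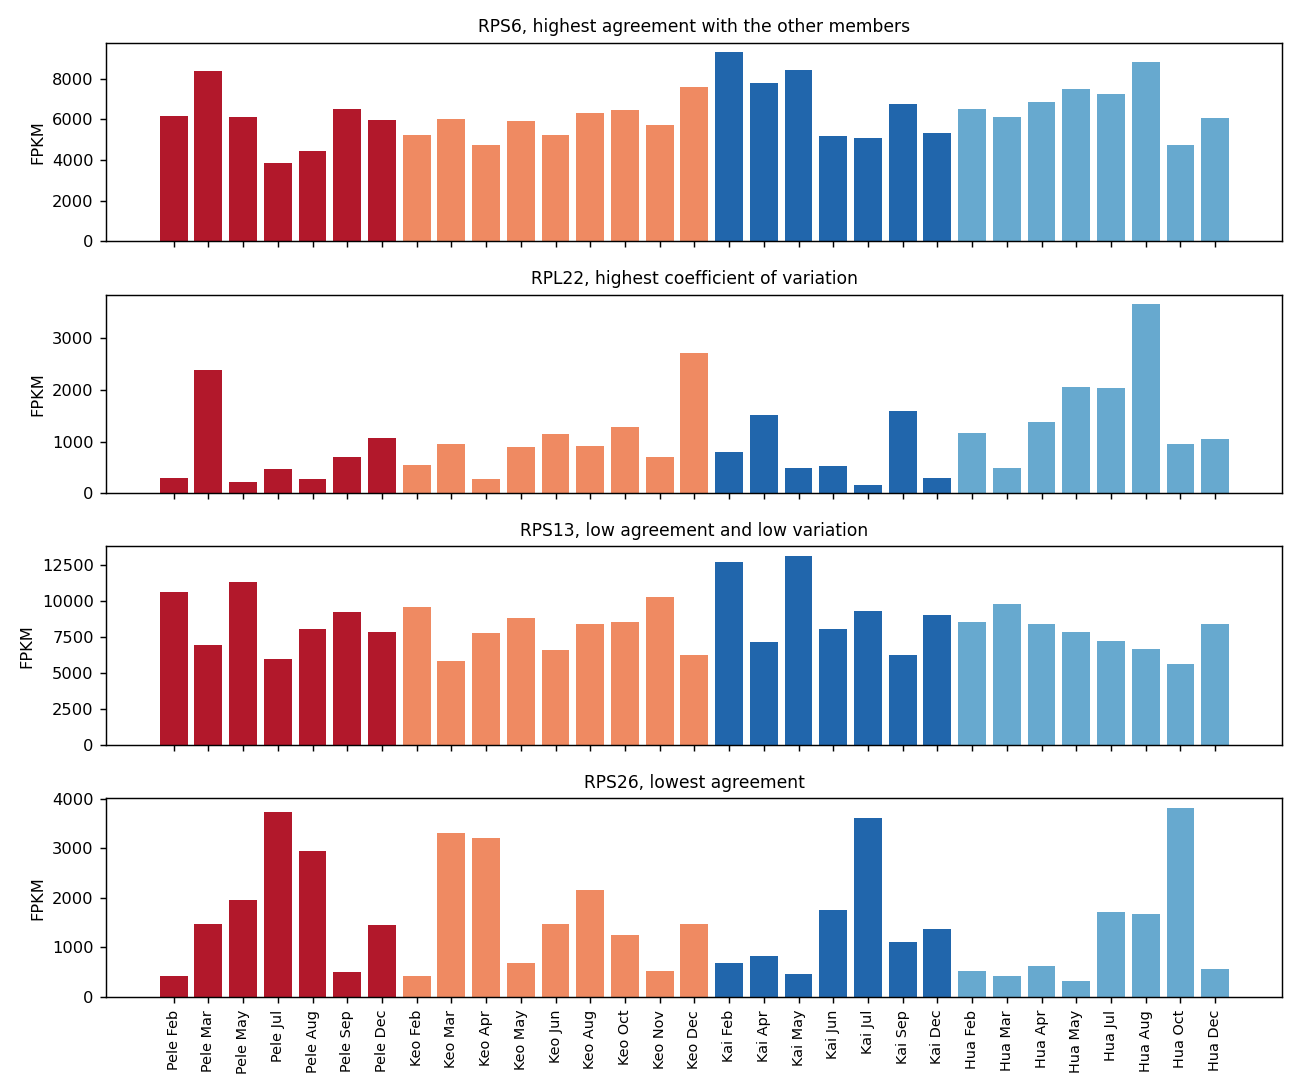
FPKM of RPS6, RPL22, RPS13 and RPS26 in each of the 31 libraries, ordered by animal (Pele and Keo in reds, Kai and Hua in blues) and month, 1 bar per library. RPS26 is at 2943 FPKM or more in Pele July, Pele August, Keo March, Keo April, Kai July and Hua October, where RPS6 is below its median of 6135 FPKM.

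Between the sexes, the ribosomal protein messages called in the fit over all 31 libraries were lower in females. On deposited FPKM, limma called 13 of 68 members lower in females (19.1%, against 0.937% of all genes) and 0 higher (against 12.1% of all genes, with 1 member higher at an unadjusted p under 0.05). The members had a median log2 difference of -0.21, against 0.34 for all genes. Of the 13, 7 belonged to the 28 small-subunit and 6 to the 40 large-subunit members. Neutrophil and erythroid markers also differed between the sexes on deposited FPKM, as given after these results.

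RPS7, mutated in some families with Diamond-Blackfan anaemia in human, had the smallest p. Its values ran from 8432 FPKM through a median of 11145 to 16915 in females (n = 16), and from 13122 through 17731 to 24578 in males (n = 15). The difference was -0.65 ± 0.107 (SE, log2), with an adjusted p of 0.000451 in limma. The ranges overlapped.

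RPS20, a head protein of the small subunit, had 1626, 2988 and 3658 FPKM as lowest, median and highest value in females, against 3059, 4424 and 5436 in males. Its difference was -0.60 ± 0.111 (limma, adjusted p = 0.00123). RPL12 had 10585, 15597 and 18225 FPKM in females, against 14586, 22221 and 38073 in males. Its difference was -0.60 ± 0.112 (limma, adjusted p = 0.00127), and the overlap lay between the highest females and Hua.

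RPS15A had the largest difference, -0.79 ± 0.203 (limma, adjusted p = 0.0125), at the low level of 31.4 to 134 FPKM in females and 52.7 to 205 FPKM in males. RPL37A followed with -0.64 ± 0.204 (limma, adjusted p = 0.0361). The differences of RPL21 (-0.46), RPL14 (-0.42) and RPL30 (-0.40) were called as well. The other 5, RPS23, RPS9, RPS25, RPL31 and RPS10, lay between -0.40 and -0.32.

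In all, 53 members had a negative and 15 a positive difference, and no positive one was called. RPL37, at -0.68, missed the threshold (limma, adjusted p = 0.0510). RPL3L (0.72 ± 0.283), RPS26 (0.44 ± 0.356) and RPS27L (0.26 ± 0.396) were the highest. RPS19 (0.20), RPL5 (0.17) and RPL3 (0.17) followed.

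On the scaled values the picture was the same in direction and broader. Then 30 of 68 members were called lower (44.1%, against 1.82% of all genes), 15 in each subunit, and 0 higher (against 0.593% of all genes, and 0 members at an unadjusted p under 0.05). The median was -0.58 over members and 0.04 over all genes. All 13 members called on deposited FPKM were among the 30. Only RPS26 (0.06) and RPL3L (0.41) had positive differences on that scale, so that 13 of the 15 members with a positive difference on deposited FPKM, RPS19, RPL5 and RPL3 among them, had a negative one after scaling.

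These calls treat libraries as the unit. With the 4 animal means as values limma called 0 members in either direction (16 members and 1539 of 9610 genes at an unadjusted p under 0.05), and the smallest p that exchanging whole animals could reach is 0.333. Leaving out Kai February gave 7 members called lower, Kai April 8, Kai May 8 and Pele March 20. Members called higher in females appeared when an animal or a library was left out, 4 without Hua, 1 without Keo and 1 without Pele July.

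**Figure D4:**
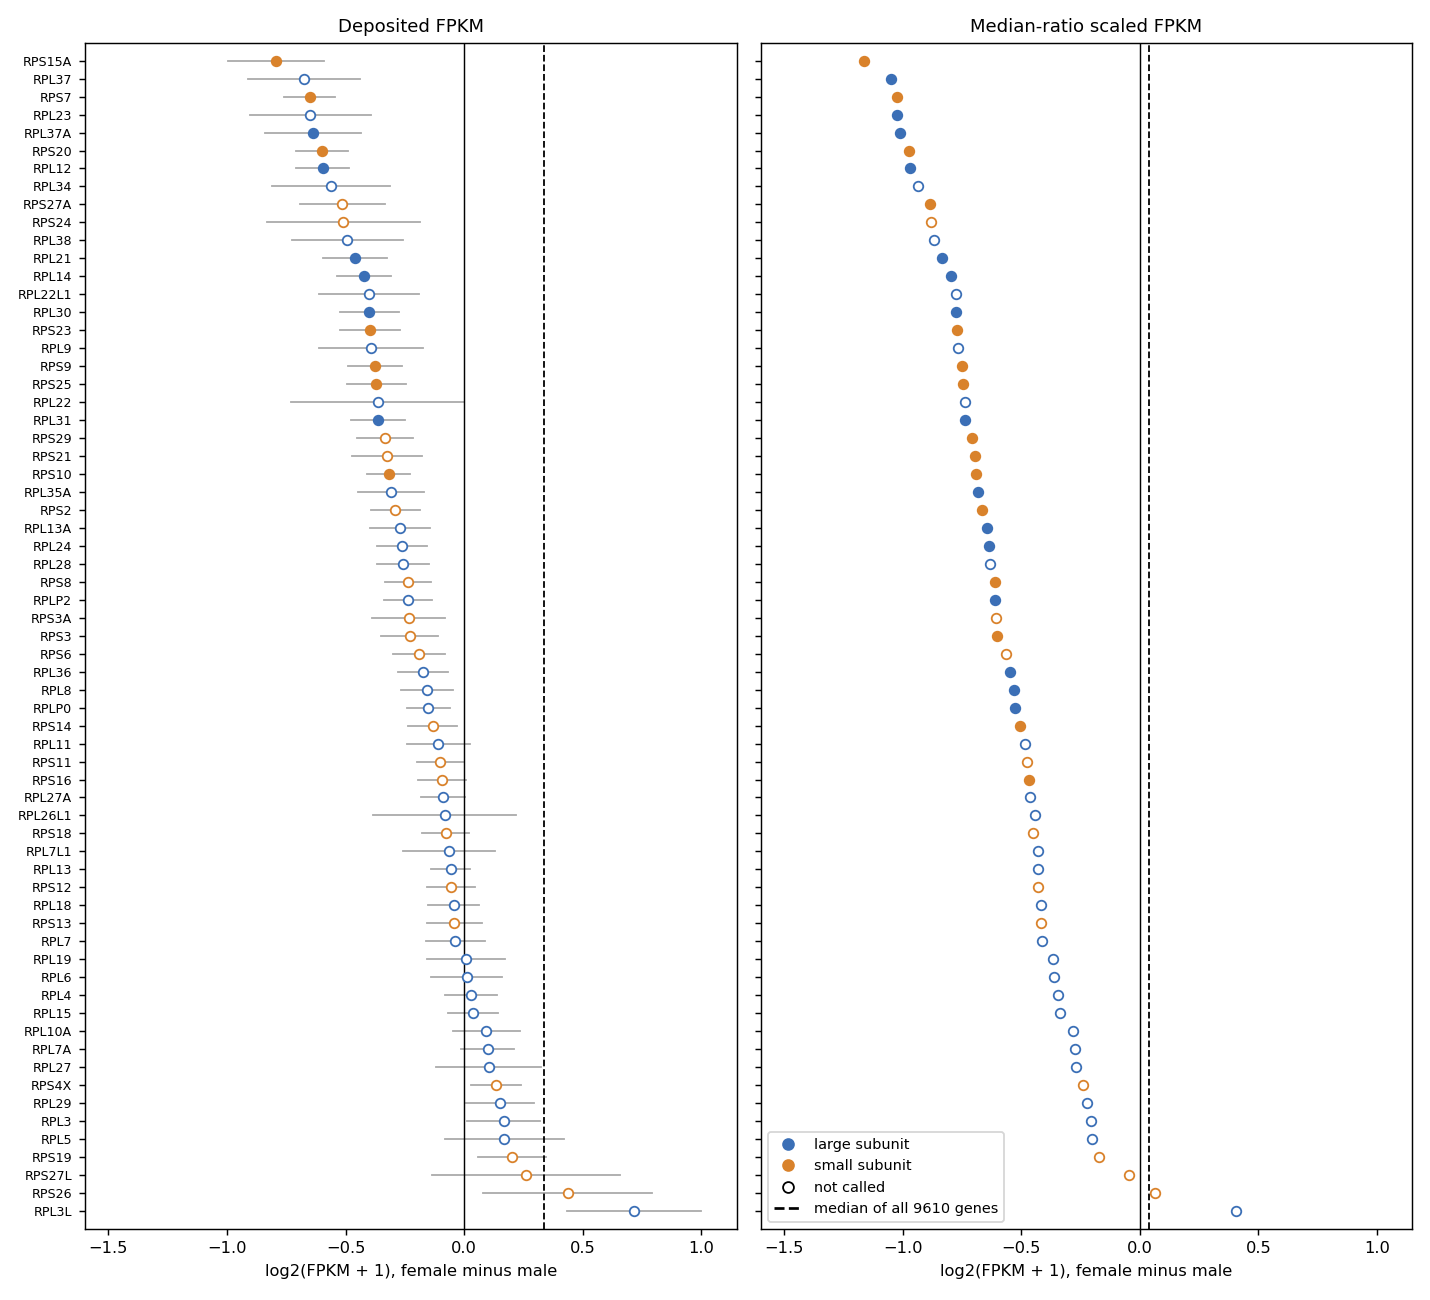
Difference of log2(FPKM + 1), female minus male, for the members (3 are left out) on deposited FPKM (left, with bars of 1 SE) and after median-ratio scaling (right, no SE drawn). Filled points were called by limma at an adjusted p under 0.05, colours give the subunit, the solid line is 0 and the dashed line the median of all 9610 genes (0.34 left, 0.04 right). Members lie left of the dashed line in both panels, apart from RPS26 and RPL3L.

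Blood cell markers moved with sex as well. Of 17 measured erythroid markers 4 were called lower and 0 higher in females. Their summed level was 62140 to 348761 FPKM in females (mean 169351) and 126923 to 352561 FPKM in males (mean 227214). Most of it was HBB, which averaged 123775 FPKM in females and 172812 FPKM in males. HBB, HBA and HBM were targets of the globin reduction, and the part of that step in this sum was not tested. Of 9 neutrophil markers 7 were called higher in females (4318 to 10044 FPKM summed, against 2572 to 5502 in males), and of 13 T cell markers 2 (375 to 1106 FPKM summed, against 169 to 930 in males). Of 8 B cell markers 1 was called higher, of 7 monocyte markers 3, of 7 cytotoxic and NK markers 2, and of 3 platelet markers 1. Of all genes 0.937% were called lower and 12.1% higher on this scale. The counts of T and B cell markers called higher were near the latter. After scaling, 1 neutrophil and 1 monocyte marker were called higher (against 0.593% of all genes) and 5 erythroid markers lower (against 1.82%). On that scale 0 T cell, B cell, cytotoxic and NK or platelet markers were called either way. No marker was at 0 in all libraries, and 2 erythroid, 1 neutrophil, 2 monocyte, 2 T cell, 2 cytotoxic and 1 platelet marker were at 0 in at least 1, CD8A and CD28 among them. The part of cell composition in the sex difference of the members was not tested. In whole blood, fewer cells of a type and less RNA per cell cannot be told apart.

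Single animals stood apart for several members. The F test over the 4 animals in limma called 17 of 68 members (25%, against 10.3% of all genes), 10 of the large and 7 of the small subunit. On scaled values it called 24 (35.3%, against 7.34% of all genes). Without Kai February the count on deposited FPKM was 10.

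RPL12 had the smallest p of this test (limma, adjusted p = 7.78e-05). It averaged 15073 ± 2602 FPKM in Pele, 15204 ± 1662 in Keo, 28282 ± 6361 in Kai and 19229 ± 2673 in Hua. Kai stood above both females without overlap, at 22221 to 38073 FPKM against 10585 to 18225 in Pele and 12901 to 16841 in Keo, and overlapped only the highest library of Hua. Its Spearman correlation with the summed neutrophil markers was -0.75 over 31 libraries, and the part of these cells in its level was not tested. RPS20 averaged 2504 ± 745 FPKM in Pele, 3125 ± 345 in Keo, 4289.5 ± 668 in Kai and 4221 ± 557 in Hua (limma, adjusted p = 0.000848).

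RPS19, the gene most often mutated in Diamond-Blackfan anaemia in human, was high in 1 animal on deposited FPKM. Pele had 5750.3 to 11476 FPKM (mean 9080.3 ± 2339, n = 7), Keo 4559 to 5547 (5034 ± 354, n = 9), Kai 3991 to 6899 (5239 ± 1164, n = 7) and Hua 4451 to 7368 (6063 ± 880.3, n = 8). Within Pele, February, March, May and September were at 10358 to 11476 FPKM, and July, August and December at 5750.3 to 7348 FPKM. Pele minus Keo was 0.81 ± 0.145 (limma, adjusted p = 0.00245), and all Pele libraries lay above all Keo libraries. Pele minus Hua was 0.55 and Pele minus Kai 0.78, both called. After scaling Pele minus Keo was 0.73, Pele minus Hua 0.23 and Pele minus Kai 0.25, and none was called.

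RPL5, RPL3 and RPL19 had their lowest means in Kai, as had other members, among them RPL15, RPL10A, RPL27, RPL29, RPL4 and RPL7A. For example, RPL15 averaged 1242 FPKM in Kai, against 1764 in Pele, 1425 in Keo and 1832 in Hua. RPL5, which with RPL11 and the 5S RNA forms the particle that can bind MDM2, was at 255 to 697 FPKM in Kai (505 ± 172), against 475 to 1406.5 in Pele (898 ± 329), 398 to 1837 in Keo (1049 ± 393) and 775 to 1740.1 in Hua (1364 ± 396). Kai lay below Hua without overlap. Kai minus Hua was -1.46 ± 0.271 on deposited FPKM (limma, adjusted p = 0.00150) and -1.26 after scaling, called on both scales.

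RPL3, at the peptidyl transferase centre, averaged 735 ± 126 FPKM in Kai, against 1310.3 ± 309 in Hua, with Kai minus Hua of -0.81 ± 0.178 (limma, adjusted p = 0.00794). RPL19, which bridges both subunits, averaged 1148 ± 240 FPKM in Kai, against 2128 ± 379 in Hua, with -0.90 ± 0.186 (limma, adjusted p = 0.00481). After scaling both were still called lower in Kai than in Hua, at -0.62 for RPL3 and -0.70 for RPL19. Against the females RPL19 was not called on deposited FPKM (Keo minus Kai 0.54, limma, adjusted p = 0.0577, and Pele minus Kai 0.42, adjusted p = 0.135). After scaling Keo minus Kai was 0.10 and Pele minus Kai -0.11 for RPL19, against 0.12 and 0.13 for RPL3, with none called. Over 31 libraries RPL5 had a Spearman correlation of 0.93 with RPL3 and 0.92 with RPL19, and of -0.28 with RPL12.

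B cell, T cell, neutrophil and monocyte markers also had their lowest mean sums in Kai. The neutrophil mean was 3720 FPKM in Kai and 4002 in Hua, and the monocyte mean 20932 in Kai and 21806 in Hua. The monocyte sum was nearly all LYZ, which averaged 25700 FPKM in females and 21046 in males. The mean sums were 26283 and 21398 FPKM. Cytotoxic and NK markers had their lowest mean sum in Hua (181 FPKM, against 269 in Kai), as had platelet markers (25.8, against 38.9). The summed B cell markers were 258 to 564 FPKM in Kai, against 526.3 to 986 in Pele, 548 to 937 in Keo and 492.6 to 1090.5 in Hua, and the T cell markers 169 to 532 in Kai, against 407 to 1106 in Pele, 375 to 725 in Keo and 214 to 930 in Hua. The Spearman correlation of RPL5 was 0.70 with the B cell and 0.72 with the T cell sum. The summed ribosome assembly genes, which are described below, were lowest in Kai as well (mean 406 FPKM, against 696 in Pele, 676 in Keo and 673 in Hua), with a Spearman correlation of 0.74 with RPL5 and 0.82 with RPL3. All 8 B cell markers were above 0 in every library. The part of cell composition in the level of RPL5 was not tested.

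**Figure D5:**
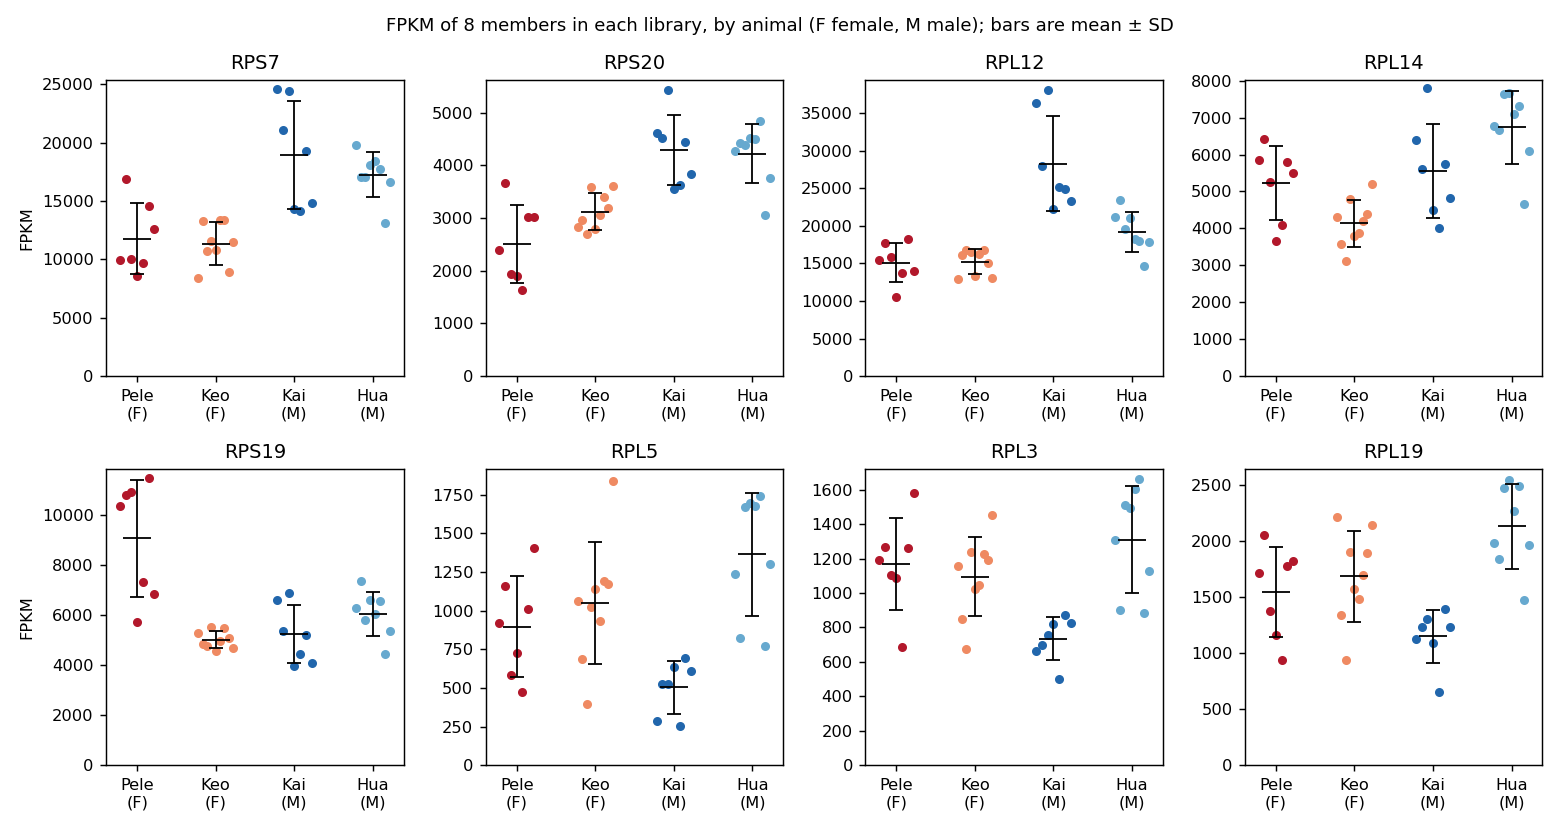
FPKM of RPS7, RPS20, RPL12 and RPL14 (upper row) and of RPS19, RPL5, RPL3 and RPL19 (lower row) in each library, by animal (females left, males right). Points are libraries and bars mean ± SD over 7 to 9 libraries. RPS19 is high in Pele, RPL12 is high in Kai, and RPL5, RPL3 and RPL19 have their lowest means in Kai.

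The 6 pairs of animals share libraries with each other and are set side by side. Between the females, Pele minus Keo had 1 member higher, RPS19 (against 0.135% of all genes), and 0 lower (against 0.104%, with 3 members at an unadjusted p under 0.05). Between the males, Kai minus Hua had 1 member higher, RPL12 (0.54 ± 0.135, against 0.676% of all genes), and 4 lower, RPL5, RPL19, RPL3 and RPL15 (against 1.86% of all genes).

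Keo minus Hua had 0 members higher (against 2.39% of all genes, with 0 at an unadjusted p under 0.05) and 3 lower, RPL14, RPS7 and RPL15 (against 0.208%). Pele minus Hua had RPS19 higher (against 3.27%) and RPS20 and RPS7 lower (against 0.271%). Keo minus Kai had RPL3 and RPL5 higher (against 6.32%) and 9 lower (against 0.801%), led by RPL12 at -0.87 and RPS7 at -0.72. Pele minus Kai had RPL15, RPL29, RPL3 and RPS19 higher (against 7.87%) and 7 lower (against 0.832%), led by RPL37A at -0.94 and RPL12 at -0.90.

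RPS7 was the only member called lower in all 4 pairs of a female and a male, and 14 members were called lower in at least 1. The same counts over all genes were not taken, so these are a description. In single pairs of a female and a male 0.208 to 0.832% of all genes were called lower. Irrespective of calls, 32 of 68 members had a mean log2 level below both males in both females, against 437 of 9610 genes, and 3 had it above, against 4871 of 9610. After scaling, 58 of 68 were below. No member was called higher in a female than in a male on scaled values. For the pairs on scaled values no counts over all genes were taken.

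Season was not accompanied by called changes in the fits over both sexes. In summer minus winter limma called 0 of 68 members (0% of all genes), with 3 members and 285 of 9610 genes at an unadjusted p under 0.05. The median log2 difference was -0.05 over members and -0.04 over all genes. The 4 smallest p belonged to RPS26, RPS4X, RPS27L and RPL29.

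RPS26 had 496, 1937 and 3726 FPKM as lowest, median and highest value in summer, against 416, 629 and 1478 in winter (n = 8 each), a difference of 1.29 (limma, adjusted p = 0.999, unadjusted 0.00243). Every summer library but Pele September lay above the median of winter. RPS27L had 15.7, 34.3 and 88.0 FPKM in summer, against 0, 15.6 and 76.7 in winter. RPS4X had 3427, 3887 and 4885 FPKM in summer, against 4667, 5164 and 5810 in winter, with a difference of -0.36, and RPL29 had a difference of -0.39. None of the 4 passed the adjusted threshold.

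An annual cosine fitted to all 31 libraries also called 0 members (0% of all genes), with 1 member, RPS26, and 729 genes at an unadjusted p under 0.05. Its fitted difference between peak and trough was 1.32 with the peak at day 228 of the year (limma, adjusted p = 0.643). The seasonal change of females minus that of males was called for 0 members (0% of all genes), with 1 member and 233 genes at an unadjusted p under 0.05. That member was RPS27L, at -3.16 on the log2 scale. The study tested the females alone, on transcripts assembled from the reads and with another method. It reported RPL31 as seasonal there, with a peak in the cooler months. Season within the females alone was not tested here.

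Other genes of ribosome production were compared between the sexes in the same fit. Of 17 other messages with a 5′ pyrimidine tract, among them elongation and initiation factors, 0 were called higher in females (against 12.1% of all genes). Their median was 0.22, beside 0.34 for all genes. Only 1 was called lower (against 0.937% of all genes). The one was FAU, which encodes a ubiquitin-like protein fused to the small-subunit protein S30, and so belongs to the ribosome although its symbol does not match the rule. It averaged 8943 ± 1064 FPKM in females and 10741 ± 1672 FPKM in males, a difference of -0.26 ± 0.0866 (limma, adjusted p = 0.0435). EEF1A1, the elongation factor that delivers tRNA, averaged 7562 ± 2176 FPKM in females and 6651 ± 2835 FPKM in males and was not called.

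Of 27 ribosome assembly genes 1 was called higher in females (against 12.1% of all genes) and 0 lower (against 0.937%), with a median of 0.35. UBTF, which acts at ribosomal RNA genes, was the one, at 30.4 ± 12.2 FPKM in females and 18.9 ± 8.64 FPKM in males (0.69 ± 0.213, limma, adjusted p = 0.0310). Of 11 genes that control ribosome output 1 was called higher, RPS6KB2, an S6 kinase. It was at 17.5 ± 4.68 FPKM in females and 10.7 ± 4.50 FPKM in males (0.73 ± 0.192, limma, adjusted p = 0.0136). The counts called higher among assembly and control genes were both below the 12.1% of all genes. After scaling, 0 of the assembly genes and 0 of the control genes were called, with medians of 0.01 and 0.14. Of all genes 0.593% were then called higher and 1.82% lower. Of the 17 pyrimidine-tract messages 3 were called lower, with a median of -0.15 and FAU at -0.63.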

How the data were processed

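Blood RNA of 31 globin-reduced samples was sequenced. Per the labels and the published methods, the authors used Trimmomatic on the reads, mapped them to the Ensembl dolphin genome turTru1 and deposited FPKM per gene from RSEM 1.2.18 with Bowtie2 2.2.4, and in a second table from Cufflinks 2.2.0 with TopHat2 2.3.13 (versions as in the submitters' processing notes). FPKM scale fragments to transcript length and library. Scaling between libraries is not described, and a target depth is stated but not the read number reached in each library. Columns of the authors' own comparisons (log2 fold changes with posterior probabilities) and the de novo table, which pairs genes with proteins and not with symbols, were not used. No per-sample column was left unmatched.

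Members were taken from the RSEM table by symbol. All 68 symbols were also in the RefSeq annotation of assembly mTurTru1.mat.Y, whose build differs, so no coordinates are given. The members and lists were chosen with earlier results of these data known. Tests used limma 3.58.1 (R 4.3.3) (eBayes with a mean-variance trend, two-sided) on log2(FPKM + 1), a scale that understates changes of low genes, with Benjamini-Hochberg adjustment over all 9610 genes and members were called where the adjusted p was under 0.05. The fits were checked on simulated data. Comparisons were female minus male, summer minus winter, their interaction, an annual cosine, an F test over 4 animals and the 6 animal pairs.

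Named genes were the 4 highest and 4 lowest means of each subunit, called members of largest difference (up to 8 each way) or the 4 smallest p where none was called, the 6 lowest and 4 highest agreements, the 4 highest and 4 lowest CV, the paralogues, and list genes of largest difference. Of these, 3 members are not reported here by name, but are counted. The other genes named here were chosen after their values were seen. Alternatives were a pseudocount of 0.1, median-ratio size factors over 6105 genes, scaling by FPKM without globin, a mean of at least 10 FPKM, the Cufflinks table, animal blocks, animal means, and leaving out each library or animal.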

Additional observations from a re-analysis of the deposited data

Results flagged for a closer look

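Among 16 values (the share, the subunit ratio and named members), 160 groups of 4 to 10 libraries were checked for a highest or lowest library far from the rest by Dixon's criterion at its 95% level. It marked 11, and chance alone marks about 1 group in 20. No cause was tested.

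RPS26 was far above the other libraries of the animal in Hua October (3814 FPKM, next 1708) and in Kai July (3603, next 1755), and Hua October stood apart again among the 7 male libraries outside summer and winter. RPS7 was low in the same library, Hua October (13122 FPKM, next 16647 among the 8 of Hua). RPL22 was high in Keo December (2714 FPKM, next 1280.1) and Pele March (2384, next 1078), and RPS27L in Keo December (76.65 FPKM, next 34.1).

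RPL37 stood apart in Hua August (48134 FPKM, next 26483) and in Kai April among the 7 male libraries outside summer and winter (44451, next 25761). RPL3L was high in Keo February (37.5 FPKM, next 21.2). RPS13 was high in Kai February among the 4 male winter libraries (12719 FPKM, next 8994).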

How the results depend on the processing

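Of the values recomputed under alternatives, 1164 were labelled as kept, 33 moved and 100 lost their call for a named member. None reversed a called direction. Kept means that a named member's call did not change, or that a count, median, share, ratio or agreement stayed within a set tolerance. Where nothing was called the sign could still change. The summer minus winter median of the members ran from -0.139 to 0.0011 with 1 library left out. The 13 members lower in females became 30 with median-ratio scaling, 8 with animal as a random block, 0 with animal means, 6 without Kai, 4 without Keo and 6 without Pele. The 0 higher became 4 without Hua and 1 without Keo. The median member difference of -0.21 became -0.58 with median-ratio scaling. Leaving out 1 library at a time gave 7 to 20 members lower (7 without Kai February, 8 without Kai April or Kai May, 20 without Pele March), 0 to 1 higher (1 without Pele July) and 10 to 23 differing between animals (10 without Kai February). Seasonal counts stayed at 0 under every alternative run, animal as a fixed block included.

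With scaling by FPKM without globin, members called became 6 in Keo minus Hua (from 3), 21 in Keo minus Kai (from 11), 8 in Pele minus Hua (from 3), 17 in Pele minus Kai (from 11) and 18 in Kai minus Hua (from 5). With a mean of at least 10 FPKM they were 5, 17 and 5 in Keo minus Hua, Keo minus Kai and Pele minus Hua. Median-ratio scaling gave 5 in Pele minus Hua and 0 in Pele minus Keo (from 1). The shares of all genes called were not taken for these pair counts or for fits leaving out an animal or a library. The share of summed FPKM was 28.8% in females and 34.3% in males without globin, and 16.3% and 18.5% in the Cufflinks table. The causes were not tested. The labels carry no replicate numbers, so libraries were paired only through the animal, whose fixed block left the summer minus winter count at 0. The unknown number of reads in each library limits what can be said of low members such as RPL3L and RPS27L.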

Other observations

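Outside the ribosome, some mitochondrially encoded messages were among the genes with a course nearest to that of RPS26. Of 13 such protein-coding genes 10 were measured, chosen after their values were seen. The Spearman correlation with RPS26 over 31 libraries was 0.92 for ND1, 0.91 for ND2, 0.90 for ND4 and 0.86 for ND5 and ATP8, all parts of the respiratory chain or ATP synthase, while ND4L was at 0.77, CYTB 0.67, ATP6 0.56, ND6 0.39 and ND3 -0.44. The value for the sum of the 10 was 0.70. The nuclear genes ZFP36 (0.89) and RARG (0.87) stood above ND5 and ATP8. ND1 was at 312 to 633 FPKM in the 6 libraries with the highest RPS26, against 19.0 to 353 FPKM in the other 25. Within animals the value for ND1 was 0.96 in Pele, 0.87 in Keo, 0.89 in Kai and 0.95 in Hua. The median of the other ribosomal proteins ran the opposite way, at -0.65 with ND1 and -0.72 with ND4. The points share library, depth and composition, so these are descriptions.

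The genes outside the list that most closely followed the members' median were NSA2, a large-subunit assembly factor (0.86), C18orf32 (0.85) and C14orf166 (0.83), and those most opposite were STK40 and TSPO, both at -0.82 (Spearman correlation over 31 libraries).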
